A study of Mus musculus with 8 samples.

Results

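Monocytes that meet a T cell can show it costimulatory molecules, and they answer tumour necrosis factor (TNF) through receptors that recruit adaptor proteins inside the cell. The transcripts of 9 genes of these pathways, Cd80, Cd86, Cd40, Cd83, Tnfsf9, Tnfrsf1a, Tnfrsf1b, Traf1 and Traf2, were followed in Ly-6C-high monocytes of blood and spleen. The genes were picked by function, with earlier results of these data known. Every array probe that the scanner files name for these genes was taken, which gave 12 probes of the 41174 different probes of the array. Of the 9 genes, 8 passed the filter on dim probes and stand among the 18266 genes tested. The ninth, Tnfsf9, did not.

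The series set monocytes stored in the spleen beside those that circulate, with 4 samples from blood and 4 from spleen. All 8 samples came from healthy, untreated female C57BL/6 mice aged 8 to 12 weeks on a chow diet, and the 2 groups differ only in tissue. The sorting gate asked for much CD11b and Ly-6C on the cell and for little of the antigens of lymphocytes, natural killer (NK) cells and neutrophils, of a macrophage antigen, of the class II molecule I-Ab and of CD11c. Each sample was 1000 cells from 1 mouse of a group of 4, its RNA (integrity number 8 or more) was amplified from 5 ng, labelled with the dye Cy3 and hybridised to a 1-colour Agilent array. Blood and spleen were taken from each mouse, but no label says which replicate numbers share a mouse. The groups were therefore fitted as unpaired, and p-values describe the spread between these 8 samples.

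The 2 groups share the monocyte transcripts that the gate implies, and markers of other cells differ between them. Of 12 Ly-6C-high monocyte markers 9 were tested, 2 higher and 7 lower in spleen, none with an unadjusted p under 0.05. For comparison, 48.8% of all tested genes were higher in spleen. Their mean log2 value per sample, over 7 genes with a value on every array, was 11.58 to 11.97 in blood and 11.50 to 11.68 in spleen. The neutrophil list had 8 of 9 tested genes higher in spleen, with sample means of 7.40 to 8.88 in blood and 10.48 to 11.67 in spleen. The red pulp macrophage list had 7 of 8 higher, at 8.69 to 9.21 and 9.38 to 9.91, so that list too did not overlap between tissues. The dendritic cell list had 5 of 7 higher, at 8.66 to 9.10 and 8.95 to 9.38. Its Itgax, the gene of the gated CD11c, was 6.68 to 8.54 in blood and 8.57 to 10.19 in spleen. That difference was 1.80 ± 0.48 (SE, unadjusted p = 0.00395, adjusted p = 0.57 with limma), the only 1 of the 7 with an unadjusted p under 0.05. H2-Ab1, a gene of the gated I-Ab, differed by 0.47 ± 0.42 (SE). These 2 genes were named after their values were seen. The B cell list (7.99 to 8.47 and 7.88 to 8.41) and the T cell list (7.39 to 7.75 and 7.50 to 8.21) overlapped. The platelet list (7.50 to 9.39 and 7.47 to 8.22), with 5 of 7 tested genes lower in spleen, overlapped through blood 1 alone. Blood 2 to 4 lay at 8.61 to 9.39 there, above every spleen sample. Of the NK cell list only Klrd1 was tested, at 6.50 to 7.80 in blood and 7.21 to 7.67 in spleen. The T cell kinase Lck and the plasmacytoid dendritic cell receptor Siglech had no value at the background level (defined with the values) in any sample. Both were named after their values were seen, and other genes of their lists went the other way. The T cell genes Cd3e, Cd3g and Cd4 and the dendritic cell genes Flt3, Zbtb46 and Xcr1 reached that level in all 8 samples. In a bulk sample, more RNA of a gene per cell and more cells that carry it cannot be told apart.

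**Figure D1:**
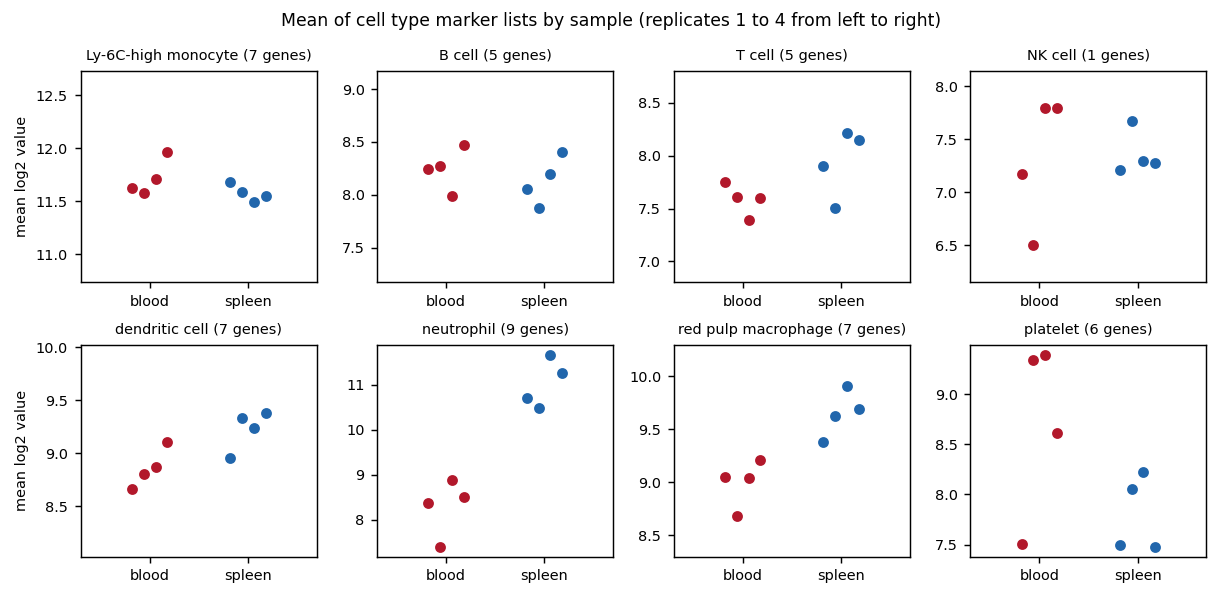
Mean log2 value of the tested genes of each cell type marker list that have a value on every array (y axis), for the 4 blood samples (red) and the 4 spleen samples (blue). Neutrophil and red pulp macrophage lists lie higher in all 4 spleen samples, and the other lists overlap between tissues, the platelet list through blood 1 alone.

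The costimulatory molecules work in pairs. CD80 and CD86 on an antigen-presenting cell bind CD28 and CTLA-4 on the T cell, CD40 receives CD40 ligand from a helper T cell, CD83 is a surface marker of activated dendritic cells and B cells, and the 4-1BB ligand encoded by Tnfsf9 engages 4-1BB on activated T cells. TNF acts through TNFR1 (Tnfrsf1a), which carries a death domain, and TNFR2 (Tnfrsf1b), which lacks one. TRAF2 binds TNFR2 directly and TNFR1 through the adaptor TRADD, and TRAF1, which pairs with TRAF2, is itself a known target gene of NF-kB.

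Of these genes, the probes for Traf1 and Cd83 gave the largest spleen minus blood differences and the smallest p. Those for Cd80 gave differences of opposite sign, and those for Cd86 disagreed on which samples were high. The sequences of these probes follow, in the orientation of the scanner files, since they show which stretch of the transcript each value comes from. No base is singled out.
Traf1, probe A_51_P343833: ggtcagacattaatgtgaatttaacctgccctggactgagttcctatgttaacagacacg
Cd83, probe A_51_P199135: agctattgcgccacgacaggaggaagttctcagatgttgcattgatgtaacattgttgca
Cd80, probe A_51_P418295: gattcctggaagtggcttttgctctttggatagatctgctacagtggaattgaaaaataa
Cd80, probe A_52_P244005: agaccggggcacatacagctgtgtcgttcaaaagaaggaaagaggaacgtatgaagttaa
Cd86, probe A_51_P174723: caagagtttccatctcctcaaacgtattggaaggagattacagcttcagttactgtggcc
Cd86, probe A_52_P145861: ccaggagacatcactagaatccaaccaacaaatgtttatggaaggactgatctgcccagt
On the mouse build mm7, as the scanner files give it, the Traf1 probe lies on the minus strand of chromosome 2 from 34950673 to 34950732 and the Cd83 probe on the plus strand of chromosome 13 from 43243266 to 43243325. The Cd80 probes lie on the plus strand of chromosome 16, A_51_P418295 from 38202894 to 38202954 and A_52_P244005 from 38181436 to 38181495, 21458 bases apart between centres. The Cd86 probes lie on the minus strand of chromosome 16, A_51_P174723 from 36323674 to 36323733 and A_52_P145861 from 36312799 to 36312858, 10875 bases apart. No exon or untranslated region annotation of this build was used here.

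Values are log2 levels of the authors' value table. A level of 6.8 was taken as the background level, since from there up at least 95% of probes in every step of 0.1 were well above background by the scanner's own test on each of 5 arrays. A gene with several probes is represented by the one with the highest mean. Every difference is the spleen mean minus the blood mean in log2 units, from limma's test across the 18266 genes, with p-values adjusted by the Benjamini-Hochberg method over all of them. No member had an adjusted p under 0.05, where the background is 0 of 18266 genes (0%). An unadjusted p under 0.05 was found for 2 of 8 members, against 5.43% of all tested genes. Both of these, Traf1 and Cd83, were higher in spleen (background 3.09%), and 0 of 8 were lower (background 2.34%). Since members were chosen with earlier results of these data known, these counts only describe them and test nothing. The median difference of the 8 members was 0.21, 5 above 0 and 3 below. That of all tested genes was -0.0081, with 48.8% of them above 0.

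**Figure D2:**
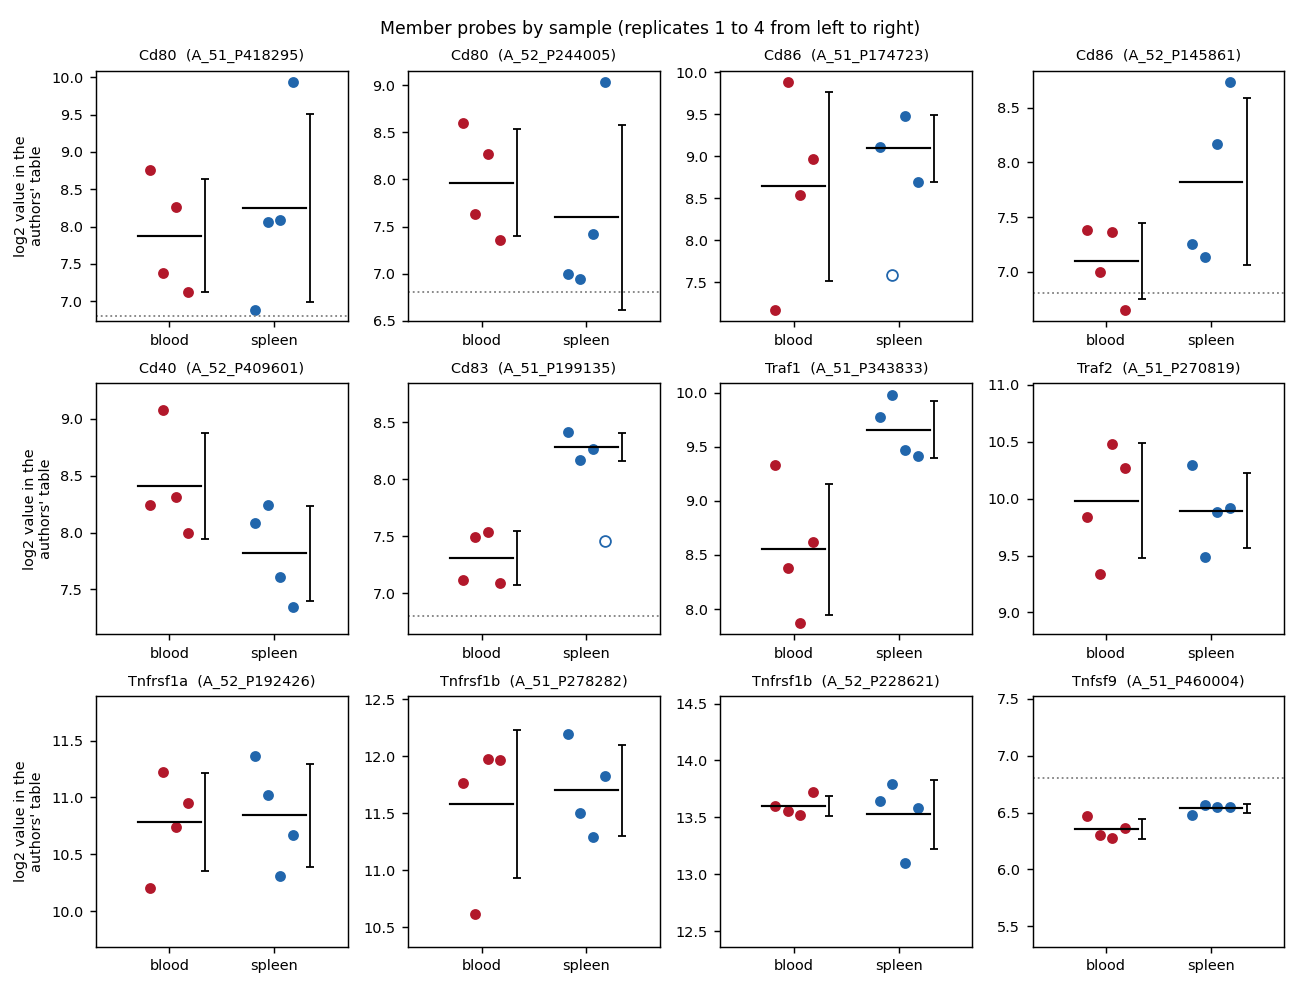
Log2 value in the authors' table (y axis) of the 12 probes of the 9 genes in the 4 blood (red) and 4 spleen (blue) samples, replicates 1 to 4 from left to right. Black lines are means with SD as error bars, the dotted line is the background level, and the 2 open circles are cells that are empty in the table and were read from the scanner file of the same array. Traf1 is higher in every spleen sample than in any blood sample, and the open circle of Cd83 falls among the blood samples.

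Traf1 gave its 4 highest values in the 4 spleen samples. Its levels were 9.34, 8.38, 7.88 and 8.62 in blood 1 to 4, and 9.78, 9.98, 9.47 and 9.41 in spleen 1 to 4. The spleen values lay close together and the blood values were spread, with blood 1 only just below the lowest spleen sample. Blood averaged 8.55 ± 0.61 (SD, n = 4) while spleen averaged 9.66 ± 0.27 (SD, n = 4), a difference of 1.11 ± 0.32 (SE, 95% interval 0.40 to 1.81), or 2.15-fold. With limma the unadjusted p was 0.00616 and the adjusted p 0.631. Groups that did not overlap, with spleen above, were found for 2 of 8 members and 344 of 18266 genes (1.88%), and with spleen below for 0 of 8 members and 258 genes (1.41%). The neutrophil and red pulp macrophage lists were higher in the same 4 samples, and their part in this difference was not tested.

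Cd83 was higher in the 3 spleen samples that have a value in the table. It stood at 7.11, 7.49, 7.54 and 7.09 in blood 1 to 4 and at 8.42, 8.17 and 8.26 in spleen 1 to 3, while the cell of spleen 4 is empty. The means were 7.31 ± 0.24 (SD, n = 4) and 8.28 ± 0.12 (SD, n = 3), a difference of 0.98 ± 0.23 (SE, 95% interval 0.45 to 1.50), or 1.97-fold, with an unadjusted p of 0.0025 and an adjusted p of 0.479 in limma's test. The blood values lay near the background level of 6.8, so the size of the difference is uncertain. The neutrophil and red pulp macrophage lists and Itgax were higher in spleen too, and their part in the Cd83 difference was not tested.

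The empty cell bears on that difference. The scanner file of spleen 4 does hold the spot, whose local background the software marked as an outlier while the spot itself was not marked. Because the table follows the scanner's median signal in rank on that array, its level can be read from probes of the same signal, and 99% of the known cells checked this way on that array came out within 0.0035. Only cells with a value could be checked, while 99.6% of the empty cells of that array have a background marked as an outlier. Whether such a background shifts the reading was not tested. The reading was 7.46, below blood 2 and blood 3 and well under the other spleen samples. With empty cells of the 5 arrays that can be read in this way filled, an alternative chosen after the data were seen, the Cd83 difference was 0.77 (unadjusted p = 0.0153, adjusted p = 0.732 with limma) and the tissues overlapped, whereas Traf1 stayed at 1.11 without overlap.

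A mismatch among the deposited files limits both results. For blood 1 to 3 the scanner files hold other arrays than the table does under those sample names, with rank correlations of 0.842, 0.852 and 0.872 between file and column against 1 after rounding for the other 5. On a scale of log2 processed signal minus each array's 75th percentile, Traf1 was 3.77, 1.97 and 1.77 in those 3 files, -0.45 in blood 4 and 0.92, 1.23, 0.41 and 0.41 in spleen 1 to 4. Cd83 was 1.36, 1.39 and 1.89 in the 3 files, -2.90 in blood 4 and -0.78, -1.20, -1.08 and -2.11 in spleen 1 to 4. Both genes were thus highest in the mismatched blood files and lowest in the matching one. With all 8 scanner files the differences turned to -1.02 for Traf1 and -1.73 for Cd83, and with the 5 matching files alone they were 1.19 and 1.60, where blood is a single array. No label or header says which of the deposits is the intended one.

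**Figure D3:**
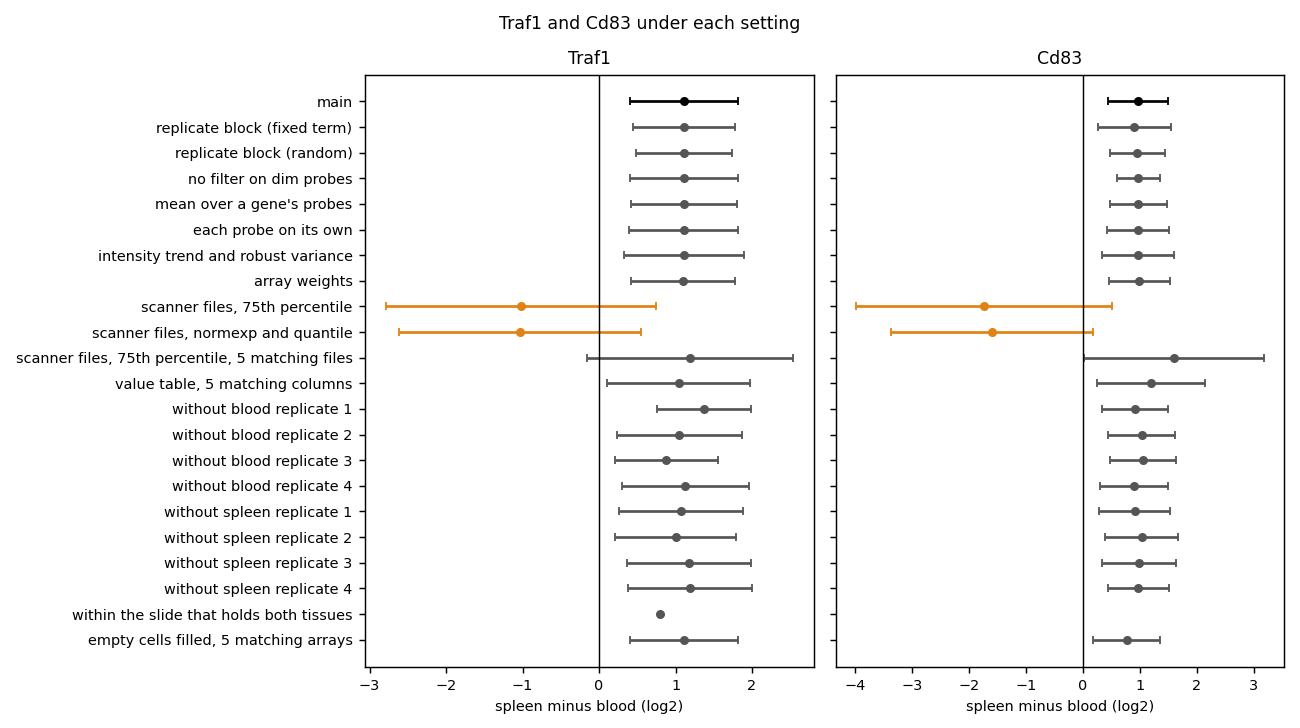
Spleen minus blood difference (x axis, log2) of Traf1 and Cd83 with its 95% confidence interval under each setting of the analysis, 1 per line, with the main fit at the top. All settings lie above 0 but the 2 that use all 8 scanner files (orange), and the point with no bar is the difference within the single slide known to hold both tissues.

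Cd80 varied more between samples than between tissues. Probe A_51_P418295 read 8.75, 7.38, 8.27 and 7.12 in blood 1 to 4 and 6.89, 8.07, 8.09 and 9.94 in spleen 1 to 4. Probe A_52_P244005 read 8.60, 7.63, 8.27 and 7.36 in blood and 6.997, 6.94, 7.42 and 9.03 in spleen. Both probes ranked the blood samples alike and put spleen 4 on top, while spleen 1 was lowest by the first probe and spleen 2 by the second.

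The tissue difference of Cd80 had no settled direction. It was 0.37 ± 0.61 (SE, 95% interval -1.01 to 1.74, adjusted p = 1 after rounding) by the first probe, which represents the gene, and -0.37 ± 0.48 (SE) by the second when each probe was fitted on its own. Without spleen 4 the first probe gave -0.20. The SD of the first probe in spleen, 1.26, was above 0.88, the percentile 90 of the spleen SD of all tested genes. Spleen 4 was also the highest sample for the B cell factor Pax5 (9.07, against 7.03 to 8.29 in the other 7 samples) and for the T cell receptor chain Cd3d (9.08, against 6.27 to 6.94 in the other 7). Both were chosen from the marker lists after their values were seen. Over the whole B cell list spleen 4 did not stand apart, with a mean of 8.41 against 7.88 to 8.47. Over the 5 T cell genes with every value, which leave out Cd3d, it had 8.15, below spleen 3 with 8.21. Cd3e, another T cell receptor chain, was highest in spleen 3 (10.75, against 8.37 in spleen 4). A further chain, Cd3g, was highest in spleen 4 (8.82, against 6.82 to 7.24 in the other 7). The part of other cells in the Cd80 level of spleen 4 was not tested.

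The probes of Cd86 disagreed on which samples were high. Probe A_51_P174723, which represents the gene, read 7.17, 9.88, 8.54 and 8.96 in blood 1 to 4 and 9.10, 9.48 and 8.69 in spleen 1, 3 and 4. Probe A_52_P145861 read 7.38, 6.998, 7.36 and 6.65 in blood and 7.26, 7.14, 8.17 and 8.74 in spleen. Blood 1 was thus the lowest blood sample by the first probe and the highest by the second, and spleen 4 was the lowest measured spleen sample by the first and the highest by the second.

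By neither probe did the tissues differ beyond the spread. The first gave 0.45 ± 0.57 (SE, 95% interval -0.85 to 1.75) with blood SD 1.13 (n = 4) and spleen SD 0.40 (n = 3). Its empty cell of spleen 2, read from the scanner file as for Cd83, was 7.59, and with it the difference was 0.077, while without blood 1 it was -0.035. The second gave 0.73 ± 0.38 (SE, 95% interval -0.12 to 1.57, unadjusted p = 0.0844 with limma on each probe). That second probe lay near the background level in blood, with blood 4 below it.

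Cd40 had its highest value in blood 2 and its lowest in spleen 4. The levels were 8.24, 9.08, 8.31 and 8.00 in blood 1 to 4 and 8.08, 8.24, 7.61 and 7.34 in spleen 1 to 4, so the tissues overlapped at spleen 1 and spleen 2. Means of 8.41 ± 0.47 (SD, n = 4) and 7.82 ± 0.41 (SD, n = 4) gave a difference of -0.59 ± 0.30 (SE, 95% interval -1.27 to 0.090), with an unadjusted p of 0.0818 and an adjusted p of 0.96 in limma's test. It is the member with the most negative difference, and its sign was the same in all alternatives tried, with values from -0.73 to -0.37 when 1 sample was left out, the latter without blood 2. The probe, A_52_P409601, lies on the plus strand of chromosome 2 of mm7 from 164811455 to 164811514.

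Tnfsf9, the 4-1BB ligand, was below the background level on all 8 arrays. Its probe A_51_P460004, on the plus strand of chromosome 17 of mm7 from 55318447 to 55318506, read 6.28 to 6.47 in blood and 6.48 to 6.57 in spleen. None of the 8 scanner files marked it as well above background, so both tissues have only an upper bound and no fold is given. Without the filter on dim probes limma gave 0.18 ± 0.083 (SE), with an unadjusted p of 0.0604.

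**Figure D4:**
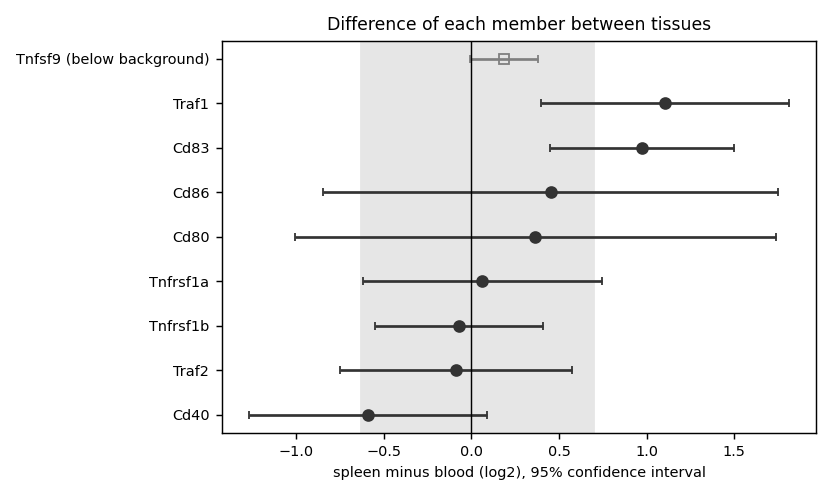
Spleen minus blood difference (x axis, log2) of each gene with its 95% confidence interval from limma's fit, and for Tnfsf9 (open square) from the fit without the filter on dim probes. The grey band spans the 5th to the 95th percentile of the differences of all 18266 tested genes. Only the intervals of Traf1 and Cd83 lie wholly above 0, and none lies wholly below.

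In the main fit the TNF receptors and Traf2 gave the smallest differences between tissues of the tested members. Tnfrsf1a, the gene of TNFR1, was 10.21, 11.23, 10.74 and 10.95 in blood 1 to 4 and 11.37, 11.02, 10.31 and 10.67 in spleen 1 to 4. The ranges lay over each other, and the difference was 0.062 ± 0.30 (SE, 95% interval -0.62 to 0.74). Its probe A_52_P192426 lies on the plus strand of chromosome 6 from 125388661 to 125388720.

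Tnfrsf1b, the gene of TNFR2, had the smallest spread in blood of the tested members. Its representing probe A_52_P228621 read 13.60, 13.56, 13.52 and 13.73 in blood and 13.64, 13.80, 13.10 and 13.58 in spleen, with only spleen 3 apart from the rest. The difference was -0.072 ± 0.21 (SE, 95% interval -0.55 to 0.41), and it was 0.072 without spleen 3. The other probe, A_51_P278282, read 11.77, 10.62, 11.98 and 11.97 in blood and 12.20, 11.50, 11.29 and 11.83 in spleen, with a difference of 0.12 ± 0.35 (SE). This probe of 60 bases is placed over 574 bases of chromosome 4, from 144635392 to 144635965, so its 2 ends lie in separate stretches of the genome, while A_52_P228621 lies 8819 bases away from 144626830 to 144626889, both on the minus strand.

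Traf2 was 9.84, 9.34, 10.48 and 10.27 in blood 1 to 4 and 10.29, 9.49, 9.88 and 9.91 in spleen 1 to 4. The difference was -0.088 ± 0.295 (SE, 95% interval -0.75 to 0.58), by probe A_51_P270819 on the minus strand of chromosome 2 from 25526314 to 25526373. The 95% intervals of Tnfrsf1a, Tnfrsf1b and Traf2 lay within 2-fold in either direction, as did those of 55.1% of all tested genes, and those of the other 5 tested members reached past it. The adjusted p of these 3 genes was 1 after rounding. In the main fit Traf1 and Traf2, partners in 1 complex, thus gave differences of 1.11 and -0.088, and that contrast was not tested itself. The file mismatch limits these results too. With all 8 scanner files at the 75th percentile the differences were 0.88 for Tnfrsf1a, 0.46 for Tnfrsf1b and -0.68 for Traf2. Their 95% intervals then reached past 2-fold. Traf1 was -1.02 there, of the same sign as Traf2.

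The other genes of these pathways, 84 in 4 lists, were read in the same fit, and 65 of them were tested. None had an adjusted p under 0.05. Among those whose unadjusted p was under 0.05, 7 were higher in spleen (10.8%, against 3.09% of all tested genes) and 0 were lower (against 2.34%). Of the 65 differences 34 were above 0 and 31 below, with a median of 0.019. Over all tested genes 48.8% of the differences were above 0. The lists were chosen with earlier results of these data known, and they are described here by counts alone.

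Among B7 and CD28 family genes 4 of 5 tested were higher in spleen, against 48.8% of all tested genes, with a median of 0.31. The unadjusted p was under 0.05 for 2 of the 5, against 5.43% of all tested genes. Cd274, which encodes the T cell inhibitory ligand PD-L1, was 6.76, 6.46, 6.79 and 6.998 in blood 1 to 4 and 8.87, 7.78, 8.21 and 8.44 in spleen 1 to 4. The tissues did not overlap, and 3 of the 4 blood values were below the background level, so the size of the difference is uncertain. It was 1.57 ± 0.27 (SE), with an unadjusted p of 0.000185 and an adjusted p of 0.153 in limma's test, and it turned to -0.23 with all 8 scanner files. Icosl, the ligand of ICOS, named after its value was seen, was 0.79 ± 0.31 (SE) higher. Vsir, an inhibitory receptor of the same family chosen likewise, differed by 0.061 ± 0.35 (SE).

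Of the TNF superfamily ligands 6 of 8 tested were higher in spleen, against 48.8% of all tested genes, with a median of 0.21. Ltb, a chain of lymphotoxin, was 8.40, 8.11, 8.94 and 8.45 in blood and 8.77, 10.44, 10.82 and 9.61 in spleen. Spleen 1 fell among the blood samples, and the difference was 1.44 ± 0.42 (SE, adjusted p = 0.659 with limma). Tnfsf12, the gene of TWEAK, also named after its value was seen, differed by 1.30 ± 0.57 (SE), with spleen 3 alone at 11.10. Tnf itself, also chosen outside the naming rule, averaged 7.28 ± 0.38 (SD, n = 4) in blood against 7.26 ± 0.39 (SD, n = 4) in spleen, a difference of -0.022 ± 0.28 (SE). Some of its values lay near the background level, at 6.88 in blood 2 and 6.90 in spleen 2, so the size of the difference is uncertain.

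The TNF superfamily receptors divided evenly, 10 above and 10 below 0 among 20 tested genes, with a median of 0.0024 and none at an unadjusted p under 0.05. Tnfrsf4, the gene of OX40, had the smallest p of them, averaging 11.07 ± 0.43 (SD, n = 4) in blood against 10.28 ± 0.65 (SD, n = 3) in spleen, a difference of -0.79 ± 0.37 (SE, unadjusted p = 0.062 with limma). With its empty cell of spleen 4 filled from the scanner file the difference was -0.48 (unadjusted p = 0.261). Tnfrsf9, shown because it is the receptor of the 4-1BB ligand, was near the background level in both, at 6.79 ± 0.40 and 6.82 ± 0.25 (SD, n = 4 each).

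Signal transduction genes below the receptors numbered 32, all tested, with 14 differences above 0, 18 below and a median of -0.058. Tradd, the adaptor of TNFR1, was 8.18, 8.36, 8.93 and 8.96 in blood and 9.74, 9.51, 9.49 and 10.80 in spleen, without overlap, a difference of 1.28 ± 0.34 (SE, unadjusted p = 0.00414, adjusted p = 0.57 with limma). Tnfaip3, the gene of the NF-kB inhibitor A20, was 9.47 to 10.77 in blood and 10.79 to 11.49 in spleen, a difference of 0.89 ± 0.31 (SE, adjusted p = 0.74), with the highest blood and the lowest spleen sample next to each other. Tab1, an activator of the kinase TAK1, named after its value was seen, differed by 1.21 ± 0.48 (SE). The negative differences with the smallest p in this list were those of Ripk1, a kinase recruited to TNFR1, at -0.51 ± 0.23 (SE, unadjusted p = 0.0539), of Map3k5, a stress kinase, at -0.81 ± 0.46 (SE), and of Birc2, a ubiquitin ligase bound to TRAF2, at -0.50 ± 0.30 (SE). The mean over the probes of Ripk1 gave -0.12 (unadjusted p = 0.619), and the slide that holds both tissues gave 0.18. Without spleen 1 the differences of Map3k5 and Birc2 were -0.42 and -0.27.

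**Figure D5:**
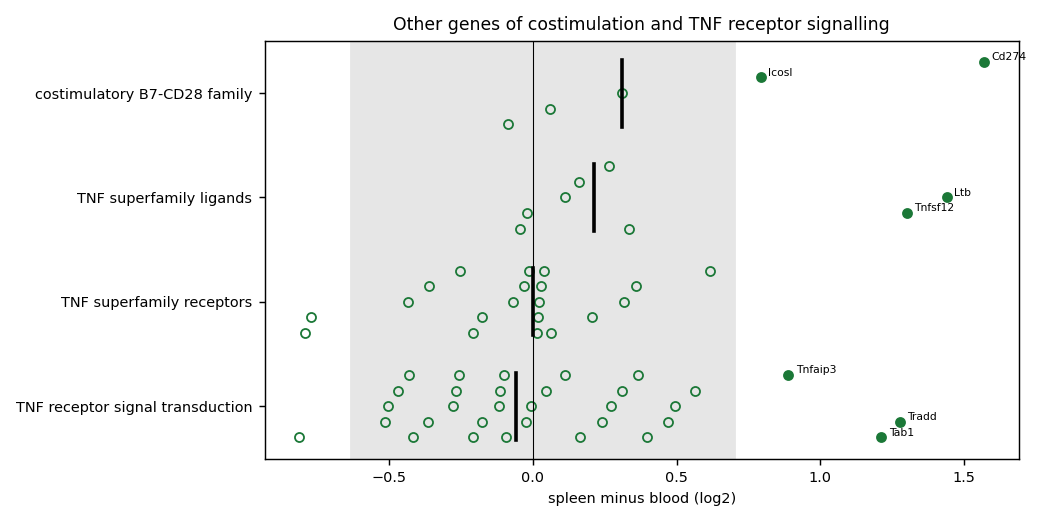
Spleen minus blood difference (x axis, log2) of the other 65 tested genes of 4 lists, 1 point per gene, with filled points at an unadjusted p under 0.05 and black bars at list medians. The grey band spans the 5th to the 95th percentile of all tested genes. All 7 filled points lie on the side higher in spleen, while the list medians lie between -0.058 and 0.31.

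The genes whose levels followed Traf1 most closely over the 8 samples were found by Pearson correlation among 16387 tested genes with a value on every array. They were AK082409 (r = 0.98), A030007L22 (0.97), Dok2, an adaptor that restrains tyrosine kinase signals (0.95), Chm, the Rab escort protein of choroideremia (0.94), and AI324046 (0.94), where 3 of the 5 carry only the name of a cDNA in the files. Their spleen minus blood differences were 0.28 to 0.87. These correlations rest on 8 arrays of shared normalization and describe likeness of pattern alone.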

How the data were processed

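RNA of 8 sorted samples was measured on 1-colour arrays with 45018 spots. The authors deposited 1 value table with log2 values for all samples, made with limma per the submitters' processing notes (its version is not given), and 1 scanner file of spot intensity values per sample (written by Agilent Feature Extraction 9.5.1.1, per the file headers). From the values, the table is read as quantile-normalized median signal without background subtraction, a step that no header records and that narrows differences of dim probes. All columns have a median of 7.31, and 583 to 1426 cells per column are empty. Between 26520 and 29562 probes passed the scanner's background test on the 5 arrays whose scanner file matches its column. Precision is limited by there being 8 arrays.

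Members were matched by the gene name in the scanner files. For the other genes 22951 probes were named by accession through RefSeq (55.7%), and 18223 kept the file's name. Probes at the background level of 6.8 or more on at least 4 arrays, with at least 3 values per tissue, were kept (25471). Spleen was set against blood in limma 3.58.1 under R 4.3.3 (lmFit, then eBayes), unpaired, after the fit had been tested on simulated data. Alternatives were a fixed and a random replicate block, other filters, probe rules, variance models and sources of values, and leaving out each sample. The members and lists were chosen with earlier results of these data known. Named in the text are all members, of the pathway lists the 4 genes with the smallest p in each direction, and the 5 genes most like the member with the smallest p and all 8 values, plus genes marked as chosen after their values were seen.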

Additional observations from a re-analysis of the deposited data

Results flagged for a closer look

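One value stood far from the others of its group. By probe A_51_P278282, the Tnfrsf1b level of blood 2 was 10.62, where the other blood samples lay at 11.77 to 11.98, a gap of 0.843 of the whole range of blood, above Dixon's 95% critical value for 4 samples. Its other probe read 13.56 in blood 2, within 13.52 to 13.73 for blood. Of 22 groups of 4 values checked over the 12 probes, 1 met this rule, and chance gives about 1 in 20.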

How the results depend on the processing

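No member passed the adjusted threshold in any alternative. Adjusted p ran from 0.324 to 1 after rounding for Traf1 and from 0.273 to 1 for Cd83, and Cd40 kept its sign throughout. The count of genes past the threshold, 0 in the main fit (992 at an unadjusted p under 0.05), was 1 with the replicate number as a fixed block, 13 with it as a random block, 7 with the mean over probes, 8 with an intensity trend, 9 with array weights, 4 with all scanner files at the 75th percentile, 4 with normexp, and 0 to 3 with 1 sample left out. Same-numbered samples deviated together by 0.090 to 0.14, and the best partner of each sample was its own number, a hint from the data, not the design. With the replicate block the Cd83 difference was 0.90 (fixed) or 0.96 (random) and that of Traf1 1.11 in both. Cd40, at -0.59 in each, went from an unadjusted p of 0.0818 to 0.0244 (fixed) and 0.0467 (random), lower in spleen, with adjusted p of 0.681 and 0.658. Members at an unadjusted p under 0.05 numbered 2 in the main fit, 3 with the fixed and 3 with the random replicate block. They numbered 0 with all scanner files at the 75th percentile, 1 with normexp and 2 whichever sample was left out. The 1 with normexp was Traf2, lower in spleen (-0.61, unadjusted p = 0.0329 with limma), and neither Traf1 nor Cd83.

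With 1 sample left out, differences ran from -0.20 to 0.82 for Cd80, -0.035 to 0.87 for Cd86, 0.90 to 1.05 for Cd83, 0.88 to 1.37 for Traf1, -0.30 to 0.078 for Traf2, -0.13 to 0.24 for Tnfrsf1a and -0.16 to 0.072 for Tnfrsf1b. All scanner files at the 75th percentile and with normexp, which include the 3 mismatched blood files, turned Cd83 (-1.73, -1.59), Traf1 (-1.02, -1.04), Cd80 (-0.18, -0.096), Tnfrsf1b (0.46, 0.30), Cd274 (-0.23, -0.41), Ltb (-1.32, -1.36), Ripk1 (1.02, 0.69) and Tnfrsf4 (0.20, 0.19), and the first of them Cd86 (-0.030) and Map3k5 (0.044). The 5 matching scanner files turned Cd86 (-0.40), Tnfrsf1a (-0.0017) and Ripk1 (0.19), the 5 matching columns Tnfrsf1a (-0.11), array weights Tnfrsf1a (-0.013), and the mean over probes Cd80 (-0.00097) and Tnfrsf1b (0.024). All scanner files at the 75th percentile and with normexp also moved Tnfrsf1a (0.88, 0.80) and Traf2 (-0.68, -0.61) without a turn of sign. Beyond the construction of these settings, the cause was not tested. Spleen 4 minus blood 4, the only pair known to share a slide, gave 2.81 for Cd80, 0.80 for Traf1, -0.66 for Cd40, -0.35 for Traf2 and -0.15 for Tnfrsf1b, and the opposite sign to the main fit for Cd86 (-0.27), Tnfrsf1a (-0.28) and Ripk1 (0.18), with no test. The slides of the other blood columns are not known. Where blood is 1 array, its spread is assumed to be that of the spleen arrays.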
